A study of Mus musculus with 9 samples.

Results

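Haloperidol, a typical antipsychotic, was compared with no drug in the forebrain of male C57BL mice, an inbred strain, on Affymetrix U74Av2 arrays, which measure messenger RNA with sets of short oligonucleotide probes. The 3 haloperidol mice drank the drug at 1.6 mg/kg/day for 4 weeks, and the 3 control mice received no treatment. These are 6 of the 9 arrays of the series, and the other 3, from mice given clozapine at 12 mg/kg/day for 4 weeks, entered the model to estimate the spread. All mice were listed at 4 weeks of age, were caged singly and had 2 weeks of acclimatisation. Each treatment held 10 mice, of which 3 were selected for arrays by a criterion not given in the sources used here, with 1 animal per array and no pooling. The titles place the tissue on the right side of the brain and the tissue entry on the left, so the side was not settled, and the hour at which brains were taken is not given in the sources used here. Values are the deposited log2 values, made by the authors with GCRMA. Of 12422 probe sets outside the array's own controls, the 4969 whose mean over all 9 arrays exceeded 5.15, the 60th percentile, were tested, and 4538 of them carried 1 gene symbol and stood for 3974 genes.

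Haloperidol binds the dopamine D2 receptor and blocks it. In the forebrain that receptor is densest in the striatum, where it sits on projection neurons that make enkephalin, and on dopamine axons themselves. Outside the brain, lactotroph cells of the pituitary carry it, and dopamine there restrains the release of prolactin, so antipsychotics that block it are known to raise prolactin in blood. A forebrain hemisphere mixes many neuron types with glia, vessels and blood, so fewer cells of a type and less RNA per cell cannot be told apart in these values. Markers of the tissue were present in all 6 arrays. Snap25, a neuronal fusion protein, lay at 12.99 to 13.26 in haloperidol mice and at 12.82 to 13.21 in controls, and Mbp, a myelin protein, at 12.20 to 12.46 and at 12.45 to 12.62. Of microglial markers, Csf1r lay at 7.82 to 7.91 in haloperidol mice and at 7.93 to 8.22 in controls, while Cx3cr1 was near the floor, at 2.15 to 2.18 and at 1.91 to 2.68. Of endothelial markers, Cldn5 lay at 6.27 to 6.68 in haloperidol mice and at 6.32 to 7.29 in controls, while Kdr was near the floor, at 3.09 to 3.11 and at 3.13 to 3.15.

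Certain arrays stood apart. Haloperidol replicate 3 alone held pituitary hormone transcripts. Control replicate 3 lay at -34.4 on the first principal component, which held 52.8% of the variance, while control 1 lay at 18.5, clozapine 1 at 16.2 and haloperidol 3 at 15.6 on the other side. Control 3 also had the widest 3' to 5' gap, taken over the array's control sets for Actb and Gapdh, a measure of 3' bias in the labelled RNA: 0.814 to 1.30 log2 units in haloperidol arrays, against 0.882 to 1.73 in controls. Among tested probe sets, haloperidol 3 and control 1 lay together above or below the other 4 arrays in 29.1%, haloperidol 1 and control 3 in 32.9%, and haloperidol 2 and control 3 in 21.6%, against 4.27% to 12.2% for the other cross-treatment pairs. The part of these differences between arrays in the results was not tested beyond the alternative fits, rescalings and left-out arrays given in the last section.

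No probe set passed. Limma called 0 of 4969 probe sets at an adjusted p of 0.05, which is 0.0% of those tested, with a lowest adjusted p of 0.626. An unadjusted p under 0.05 was found for 182 probe sets, 3.66% of those tested and fewer than the 248 that chance gives on average. Of these, 110 (2.21%) lay above the controls and 72 (1.45%) below. The arrays of the 2 groups did not overlap for 403 probe sets (8.11%), 159 above (3.2%) and 244 below (4.91%), and 56.8% of differences lay above 0. With each array centred on its median the split at an unadjusted p under 0.05 was 64 above and 105 below, and after quantile normalization 76 above and 103 below, so which side held more depended on the scaling. The named genes below are therefore given as levels and differences that did not pass, with limma's two-sided p.

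The differences were small. They lay within 0.25 log2 units of 0 for 77.3% of probe sets, and for 87.9% the 95% confidence interval lay within 1 log2 unit of 0, so a difference of that size lay outside the interval there. For 37.7% it lay within 0.5 log2 units. The median standard error of a difference was 0.183. Differences of 1 log2 unit or more were found for 4 probe sets above, 2 of Camk2a and 1 each of Vamp1 and Timp2, and for 4 below, of Glul, Polr2c, Chst2 and an unnamed probe set. These genes, named because their differences were the largest, were far from precise. Camk2a, a kinase of excitatory synapses, read 7.49, 8.01 and 8.36 in haloperidol mice, against 8.99, 6.69 and 3.87 in controls 1, 2 and 3. Glul, glutamine synthetase of astrocytes, read 8.25, 6.42 and 6.99 in haloperidol mice, against 7.52, 8.01 and 10.3 in controls. In both genes control 3 lay at one end of the 6 arrays, and the groups overlapped.

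**Figure D1:**
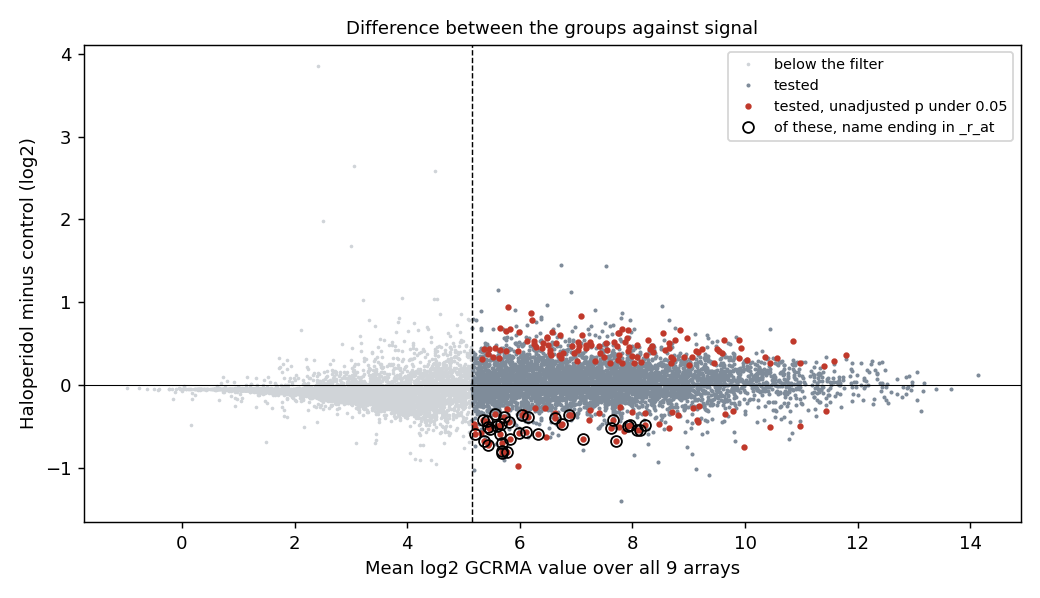
Difference between haloperidol and control means (log2, vertical) against the mean over all 9 arrays (log2, horizontal) for every probe set outside the array's controls; pale dots lay below the filter (dashed line), grey dots were tested, red dots had an unadjusted p under 0.05 and black rings mark those of the red dots whose name ends in _r_at. The rings all lie below 0, and the 5 pale dots over 1.5 are the probe sets of Gh, Pomc, Prl and Cga, which were high in haloperidol 3 alone.

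Among gene lists with at least 5 tested genes, the daily clock had the highest median difference. The clock is a loop of transcription in which Clock and Arntl, also called Bmal1, switch on period and cryptochrome genes through the sequence CACGTG, the E-box, and the period and cryptochrome proteins then switch Clock and Arntl off. Dbp, Tef and Bhlhe40 are transcription factors that the loop drives in turn. Of 15 tested clock genes, 11 lay above the controls and 4 below. An unadjusted p under 0.05 was found for 5, all above, beside 2.21% of all probe sets, and 3 did not overlap, all above, beside 3.2% of all probe sets. The median difference was 0.24, against 0.031 over all 3974 genes tested, of which 2242 lay above. The list was chosen with earlier results of these data known, so its count is a description. Without haloperidol 3 the clock median was 0.072 and that of all genes 0.002, and the clock no longer ranked first. The highest medians were then 0.166 for the olfactory bulb list and 0.155 for cholesterol synthesis.

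The promoter windows shown here are those of the tested clock genes that held an E-box. They come from RefSeq promoters of build GRCm38.p6, 250 bases before to 50 after the start of the gene, and the E-box is in capitals in each.
Per1, chr11:69098757-69098814, plus strand: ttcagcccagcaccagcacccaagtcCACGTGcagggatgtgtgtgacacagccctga
Cry1, chr10:85185083-85185140, minus strand: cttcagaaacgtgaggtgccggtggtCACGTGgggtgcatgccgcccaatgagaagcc
Tef, first window, chr15:81802520-81802577, plus strand: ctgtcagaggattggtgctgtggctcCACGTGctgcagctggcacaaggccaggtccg
Tef, second window, chr15:81811250-81811307, plus strand: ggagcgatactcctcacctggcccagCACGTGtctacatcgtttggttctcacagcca
Of the 12 clock genes with a window, 3 held CACGTG, which reads the same on both strands, beside 7.15% of 32851 windows and 8.09% of genes over the whole table. TTATGTAA, a D-box, searched on both strands, was in 0 of the 12 and in 0.938% of all windows. TGACGTCA, the cAMP response element, was in 0 of the 12 and in 1.79% of all windows. Dbp and Nr1d2 each had 1 window with none of these letters, and Per2 and Bhlhe40 were among the clock genes with no window to search. A match describes the sequence and is no evidence of a bound factor.

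Per2, a repressor of the loop, read 5.96, 6.43 and 6.06 in haloperidol 1, 2 and 3, against 5.36, 5.06 and 5.19 in controls. All 3 haloperidol arrays lay above all 3 controls. The difference was 0.95 ± 0.24 log2 units (SE, n = 3 per group), a fold of 1.93, with an adjusted p of 0.989 in limma. Dbp read 7.21, 7.50 and 7.49 in haloperidol mice, against 6.52, 6.79 and 6.39 in controls. Here too the groups did not overlap, and the difference of 0.83 ± 0.14, a fold of 1.78, had an adjusted p of 0.626 in limma. Clozapine arrays gave Dbp 7.38, 7.26 and 7.29, and Per2 5.52, 5.97 and 6.50, and both treatments share the controls. Among the 15 genes above the controls with the lowest p, the clozapine mean also lay above the control mean in 15. Among the 15 below, it lay above the control mean in 0. The part of the shared controls in this was not tested.

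Per1, which holds the first of the E-boxes above, read 7.19, 7.32 and 7.56 in haloperidol mice, against 6.69, 7.08 and 6.95 in controls. The groups did not overlap, although the gap between the lowest haloperidol array and the highest control was small. The difference was 0.45 ± 0.16 (SE; adjusted p = 0.989 in limma). Without haloperidol 3 it was 0.35. Of the clock genes that follow, named after their values were seen, Bhlhe40, a repressor that acts on the E-box, read 8.26, 7.88 and 8.25 in haloperidol mice, against 7.41, 7.30 and 7.97 in controls, with control 3 above haloperidol 2. Nr1d2, a nuclear receptor that represses Arntl, read 9.19, 8.75 and 9.42, against 8.80, 8.57 and 8.00, and control 1 lay above haloperidol 2. Their differences were 0.57 ± 0.19 and 0.67 ± 0.27 log2 units, and both groups of arrays overlapped.

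Both activators of the loop lay below 0. Arntl read 6.65, 6.28 and 6.58 in haloperidol mice, against 6.81, 6.59 and 7.25 in controls. Haloperidol 1 lay above control 2, so the groups overlapped, and the difference was -0.38 ± 0.18. Clock lay at -0.066 ± 0.15. Cry1, which holds an E-box, read 7.10, 5.77 and 6.37 in haloperidol mice, against 6.12, 6.42 and 6.71 in controls, a difference of -0.003 with a wide 95% confidence interval of -0.91 to 0.90. Tef, with an E-box in both windows, lay at 0.11 ± 0.15. Of the 3 genes whose windows held an E-box, Per1 alone had an unadjusted p under 0.05.

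**Figure D2:**
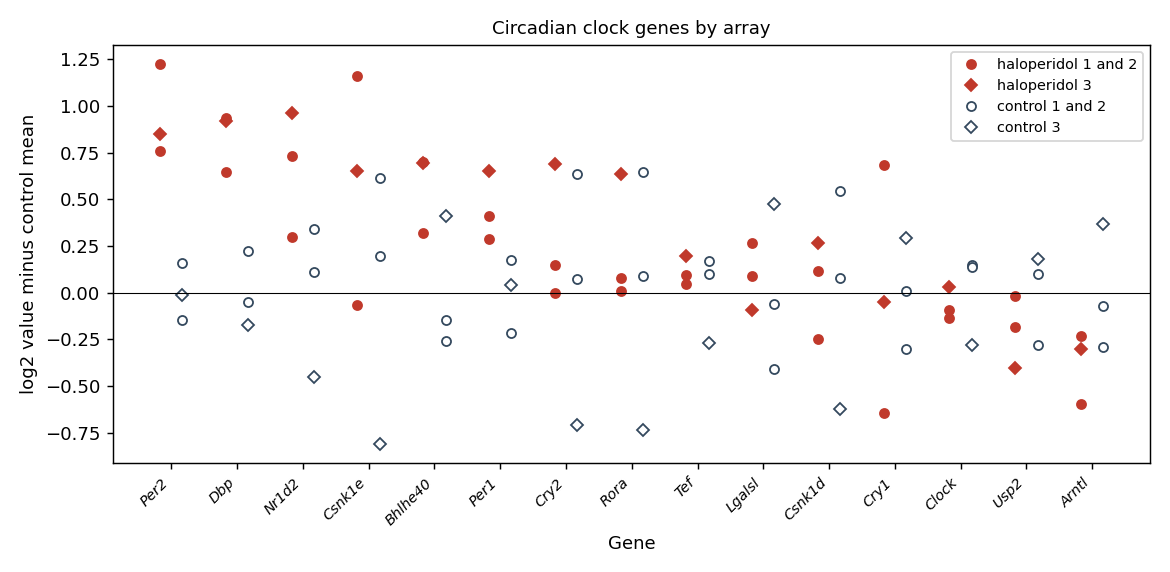
Level of each tested clock gene in each array, as the log2 value minus the mean of the 3 controls (vertical), with genes ordered by the difference between the groups (horizontal); filled red marks are haloperidol arrays, with a diamond for haloperidol 3, and open marks are controls, with a diamond for control 3. The red marks lie clear of the open ones for Per2, Dbp and Per1, and overlap them for the other 12 genes, Arntl included.

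The proteasome, the complex that breaks down proteins tagged with ubiquitin, has a barrel-shaped core that cuts proteins and a regulatory cap that unfolds them. Of 37 tested subunits and activators 25 lay above the controls, beside 56.8% of all probe sets. Of these, 5 had an unadjusted p under 0.05, beside 2.21% of all probe sets, and 5 did not overlap, beside 3.2%. The median was 0.15. Without haloperidol 3 that median was 0.019, while Psmd6 lay at 0.55 and Psma6 at 0.41. Core subunits lay above in 12 of 14, cap ATPases in 4 of 5, other cap subunits in 7 of 14 and activators in 2 of 3. The immune core subunit Psmb10, counted apart from the core, lay below at -0.28 ± 0.13 with overlap. Psmd6, a cap subunit, read 8.91, 8.94 and 8.81 in haloperidol mice, against 8.41, 8.24 and 8.47 in controls. The groups were well apart, and the difference of 0.51 ± 0.11 (SE, n = 3 per group) had an adjusted p of 0.989 in limma. Psma6, of the core, read 10.29, 9.91 and 10.23, against 9.65, 9.72 and 9.69, a difference of 0.45 ± 0.13, with haloperidol 2 lower than the other haloperidol arrays. Of subunits named after their values were seen, Psmd14, which removes ubiquitin at the cap, read 9.56, 9.59 and 9.68, against 9.33, 9.32 and 9.37, a tight difference of 0.27 ± 0.11. Psmc2, a cap ATPase, lay at 0.44 ± 0.16 with haloperidol 1 at 9.48 just under control 1 at 9.49, and Psmb1, of the core, at 0.34 ± 0.15.

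Among ubiquitin and Nedd8 conjugation genes, 21 of 29 lay above, with a median of 0.072 that was 0.065 without haloperidol 3. Cops2, a subunit of the COP9 signalosome that removes Nedd8 from cullins, lay at 0.52 ± 0.18, Ube2n, a ubiquitin conjugating enzyme, at 0.34 ± 0.13, and Cul1, a ubiquitin ligase scaffold named after its values were seen, at 0.36 ± 0.15. Of 14 purine genes 10 lay above, with a median of 0.12, led by Adsl, adenylosuccinate lyase. Adsl read 6.53, 6.99 and 7.03 in haloperidol mice, against 6.26, 6.29 and 6.29 in controls. The controls were nearly equal and haloperidol 1 lay near them, and the difference was 0.58 ± 0.15. Cholesterol synthesis genes had 9 of 12 above and a median of 0.21. None of them reached an unadjusted p of 0.05, beside 3.66% of all probe sets. Sqle, squalene epoxidase, at 0.22 ± 0.11, was the only one whose arrays did not overlap, beside 8.11% of all probe sets.

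The RNA-binding list held differences of both signs. Of 44 genes 28 lay above, beside 56.8% of all probe sets. At an unadjusted p under 0.05 there were 4 above and 2 below, beside 2.21% and 1.45% of all probe sets. Elavl2, a neuronal RNA-binding protein, read 8.50, 8.51 and 8.58 in haloperidol mice, against 7.99, 8.17 and 8.21 in controls, a difference of 0.40 ± 0.11. Hnrnpu, a nuclear RNA-binding protein, lay at 0.49 ± 0.15, and Ythdc1, a nuclear reader of methylated RNA, at 0.48 ± 0.15. The groups did not overlap for these 3. Hnrnpu, Ythdc1 and Rbfox2 were named after their values were seen. Below lay Zfr2, a zinc finger RNA-binding protein, and Rbfox2, a splicing factor. Rbfox2 read 7.64, 7.66 and 6.89 in haloperidol mice, against 7.70, 8.02 and 8.49, with haloperidol 3 the lowest of the 6 arrays and a difference of -0.67 ± 0.27.

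The other genes with the lowest p above the controls belonged to no list that stood out. Pradc1, a secreted glycoprotein with a protease-associated domain, had the lowest p of all. It read 7.09, 6.97 and 6.93 in haloperidol mice, against 6.35, 6.43 and 6.40 in controls. No array came near the other group, and the difference of 0.61 ± 0.10, a fold of 1.52, had an adjusted p of 0.626 in limma. Lxn, a carboxypeptidase inhibitor, read 7.90, 8.17 and 8.06, against 7.40, 7.22 and 7.60, a difference of 0.64 ± 0.13. Ccdc88a, also called girdin, which binds actin, lay at 0.67 ± 0.18, but its other tested probe set lay at -0.013. Tbc1d15, a regulator of Rab GTPases, lay at 0.46 ± 0.12, and its brighter probe set at 0.091. Mrps15, of the mitochondrial ribosome, lay at 0.50 ± 0.14, Ahnak, a large scaffold protein, at 0.47 ± 0.14, the motor protein gene Myo5a at 0.47 ± 0.14 and 4833420G17Rik at 0.43 ± 0.12. Clcn3, an exchanger of chloride and protons in vesicles, lay at 0.58 ± 0.17. Of its other 3 probe sets, the brightest, which was also the brightest of the gene, lay at -0.031 and the rest at 0.34 and 0.48.

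Below the controls, Ly6e, a protein anchored on the cell surface, read 10.18, 10.23 and 10.20 in haloperidol mice, against 10.71, 10.88 and 10.55 in controls. The haloperidol arrays lay close together and below every control, with a difference of -0.51 ± 0.11 (adjusted p = 0.989 in limma), though its other probe set lay at -0.16. Zfr2 read 5.58, 5.33 and 5.37, against 5.82, 5.93 and 6.01, and Nt5dc3 read 6.50, 6.57 and 6.47, against 6.95, 7.09 and 6.95. These are differences of -0.50 ± 0.11 and -0.48 ± 0.11. Mapk8ip1, a scaffold of the JNK cascade, lay at -0.44 ± 0.13 and Zmiz2, a coregulator of transcription, at -0.50 ± 0.16. None of these 5 rests on a probe set of the kind described in the next paragraph, but Ly6e rests on one whose name ends in _f_at. The _f_at sets were 6.92% of those tested, with 2 above and 9 below at an unadjusted p under 0.05.

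Many of the other low genes came from probe sets whose names end in _r_at, the mark of sets that the array's design could not build by all its rules. Such sets were 3.74% of those tested and had a median difference of -0.20. At an unadjusted p under 0.05, 0 of them lay above and 35 below, against 99 above and 24 below among the plain sets, which were 82.8% of those tested. Of the 15 genes below with the lowest p, 10 were measured by such sets. Flg, Aktip, Derl2, Mtf2, Svs6 and Cnot7 followed almost the same course over the arrays. Aktip, for example, read 5.35, 5.52 and 4.80 in haloperidol mice, against 5.81, 6.29 and 5.94 in controls, and Derl2 read 5.37, 5.53 and 4.74, against 5.82, 6.31 and 5.96. In all 6 haloperidol 3 was the lowest of the 6 arrays. Flg encodes filaggrin of skin and Svs6 a seminal vesicle protein. Other tested probe sets gave Cnot7 0.51, Mtf2 0.38 and 0.072, and Aktip -0.24 and 0.15, where the _r_at sets gave -0.64, -0.72 and -0.79. Atp6ap1, an accessory protein of the vacuolar ATPase, had a difference of -0.64 in its _r_at set and -0.068 in its brighter set, and Cct6a, a chaperonin subunit, of -0.42 and 0.015. For Ccdc90b, of mitochondria, both sets lay near -0.53, and Gpcpd1, which breaks down glycerophosphocholine, lay at -0.50 and -0.27. What sets the _r_at values was not tested.

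**Figure D3:**
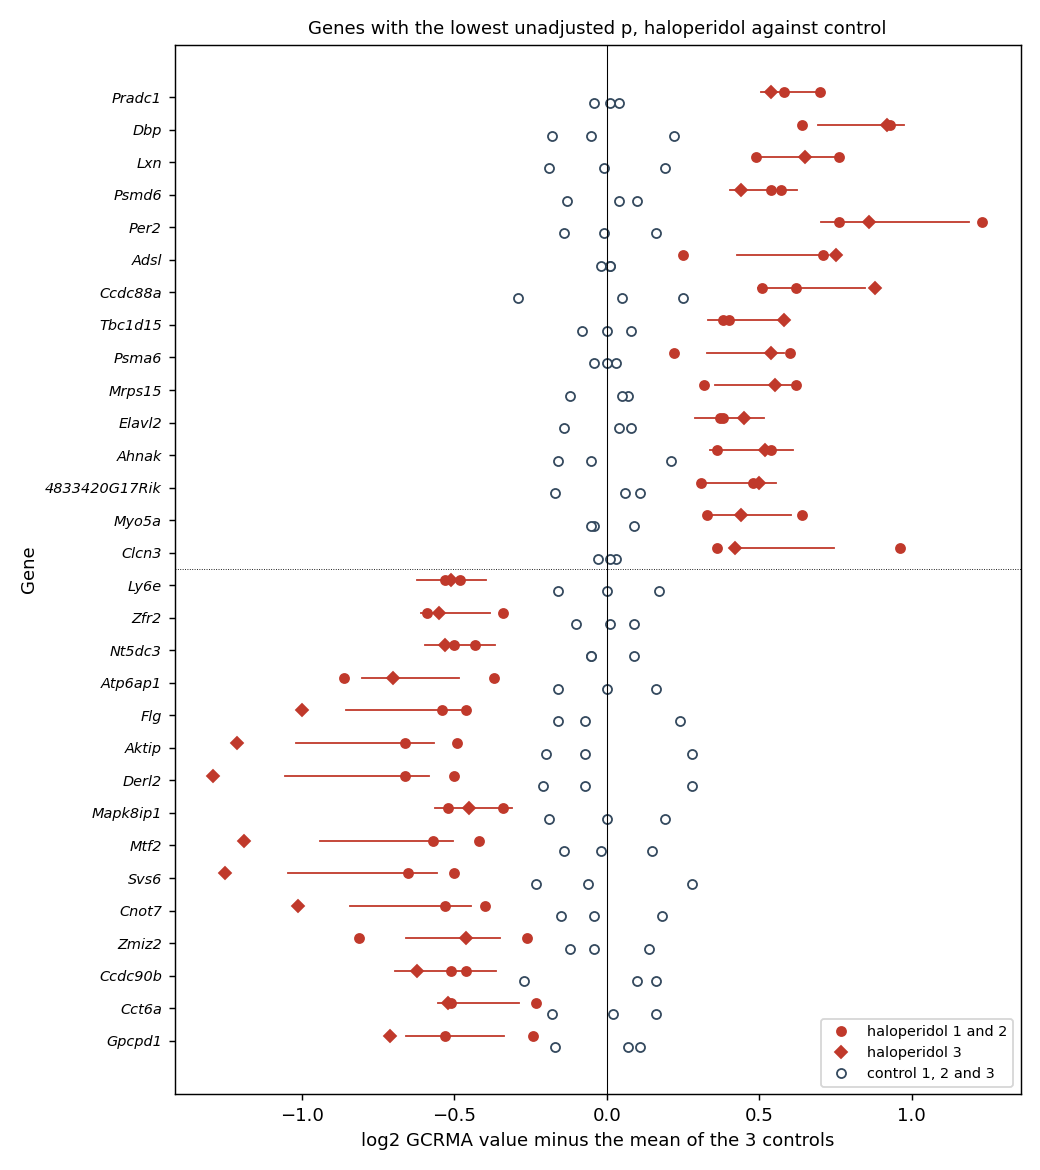
Each array's log2 value minus the mean of the 3 controls (horizontal) for the 15 genes above and the 15 below the controls with the lowest unadjusted p (vertical, divided by the dotted line); filled red circles are haloperidol 1 and 2, red diamonds haloperidol 3, open circles the controls, and the red line spans the difference ± SE. The groups do not overlap for any of the 30 genes, which were chosen for their p, and haloperidol 3 is the lowest haloperidol array in 10 of the 15 genes below.

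Other genes below the controls were measured by sets other than _r_at sets. Ap2m1, of the clathrin adaptor, chosen after its values were seen, read 8.95, 8.88 and 8.95 in haloperidol mice, against 9.47, 9.56 and 9.01 in controls, and control 3 lay close to the haloperidol arrays. Its difference was -0.42 ± 0.15. Dnm1, dynamin of synaptic vesicle uptake, read 11.23, 11.31 and 11.15, against 11.56, 11.69 and 11.39, with no overlap. Its difference was -0.31 ± 0.13, and its second probe set lay at -0.50. Adcyap1, the neuropeptide PACAP, read 6.44, 6.08 and 5.98, against 6.34, 6.97 and 7.04, so haloperidol 1 overlapped control 1, and the difference was -0.62 ± 0.25. Stip1, a cochaperone, lay at -0.36 ± 0.15, Bag3, another, at -0.57 ± 0.24 in an _f_at set, and Mt2, a metallothionein, at -0.31 ± 0.13.

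With each gene taken at its brightest probe set, no dopamine signalling gene reached an unadjusted p of 0.05, beside 3.66% of all probe sets. Drd2, the receptor that haloperidol blocks, read 5.31, 5.34 and 5.72 in haloperidol mice, against 5.36, 5.37 and 4.81 in controls. Haloperidol 1 and 2 lay within the controls' range, haloperidol 3 above it and control 3 below the others. The difference was 0.28 ± 0.18 (SE, n = 3 per group), with an adjusted p of 0.989 in limma and a 95% confidence interval of -0.14 to 0.70. It was 0.15 without haloperidol 3 and -0.037 without haloperidol 3 and control 3. The 15 dopamine signalling genes had a median of 0.020, with 8 above. Gnai1, a G protein subunit that D2 receptors act through, read 10.17, 10.16 and 10.21, against 9.98, 9.97 and 9.90. That was a small difference of 0.23 ± 0.14 without overlap, and Gnai2, a related subunit, lay at -0.64 ± 0.34 with overlap. A dimmer tested set of Gnai1 lay at 0.446, and those of Gnai2 at -0.415 and -0.065. Gnao1, another G protein subunit, lay at -0.45 ± 0.34 in its brightest set, with overlap. A dimmer set of Gnao1, named after its values were seen, lay at -0.52 ± 0.18 with no overlap and an unadjusted p under 0.05. The other tested sets of Gnao1 lay above the controls, at 0.69 and 0.19.

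Of 11 striatal genes 6 lay above, and the median was 0.007, and -0.060 without haloperidol 3. Penk, the enkephalin precursor of the neurons that carry D2 receptors, read 11.86, 11.57 and 11.84 in haloperidol mice, against 11.63, 11.56 and 11.57 in controls. Haloperidol 1 and 3 lay above the controls and haloperidol 2 within them, and the difference was 0.17 ± 0.12, with a 95% confidence interval of -0.10 to 0.44. Pdyn, the dynorphin precursor, lay at -0.064 ± 0.093, and Tac1, the substance P precursor, at 0.015 ± 0.11. Foxp1, a transcription factor of striatal neurons, lay at -0.30 ± 0.16, and Pde1b, a phosphodiesterase, at -0.21 ± 0.13. The 95% confidence intervals of Penk, Pdyn and Tac1 all lay within 0.5 log2 units of 0. Pdyn was dim, however, with means of 5.39 in haloperidol mice and 5.45 in controls, just over the filter value. GCRMA compresses differences among dim sets, so the narrow interval of Pdyn cannot exclude a larger change in its RNA.

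Immediate early genes, which neurons switch on briefly when they fire, lay above in 8 of 17. Their median was -0.002, and 0.095 without haloperidol 3. In these Per1 and Nr4a2, both above, had an unadjusted p under 0.05, beside 2.21% of all probe sets. Nr4a2 read 6.02, 6.73 and 6.89 in haloperidol mice, against 6.09, 5.86 and 5.33 in controls, with haloperidol 1 within the controls' range, and lay at 0.79 ± 0.33. Fos lay at 0.17 ± 0.28, Egr1 at 0.030 ± 0.11, Nr4a1 at 0.14 ± 0.29 and Homer1 at 0.24 ± 0.26. Fos read 9.94 in haloperidol 1 and 9.14 and 9.10 in haloperidol 2 and 3, against 8.98, 9.14 and 9.55 in controls. GABA genes lay above in 4 of 9, with a median of -0.072. Gabra2, a GABA receptor subunit, lay at 0.43 ± 0.18 with overlap and an unadjusted p under 0.05, beside 2.21% of all probe sets. Gad1, which makes GABA, read 12.54, 12.65 and 12.38, against 12.05, 12.36 and 12.34, a narrow separation, and lay at 0.27 ± 0.13. Of the excitatory neuron genes, Ccn3 lay at 0.55 ± 0.19 and Mef2c, a transcription factor, at 0.42 ± 0.17, and the 16 had a median of 0.053, which was -0.040 without haloperidol 3.

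Of the receptors for monoamines and acetylcholine 2 of 34 listed genes were tested, Drd2 and Chrm1, a muscarinic receptor. Chrm1 read 6.01, 5.88 and 6.43 in haloperidol mice, against 6.24, 5.64 and 4.29 in controls, with control 3 the lowest, and lay at 0.72 ± 0.44. Synaptic vesicle genes lay above in 17 of 24, with a median of 0.13, postsynaptic genes in 11 of 17 at 0.12, general neuronal genes in 13 of 18 at 0.051, and neuropeptide and granin genes in 10 of 15 at 0.097. At an unadjusted p under 0.05 these 4 lists held 0 genes above and 2 below, Dnm1 and Adcyap1, beside 2.21% and 1.45% of all probe sets. Avp, the vasopressin precursor, lay at 0.37 ± 0.25, and its arrays overlapped. Genes of the olfactory bulb lay above in 7 of 10 at a median of 0.11, and those of hypothalamus and thalamus in 6 of 8 at 0.037.

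Housekeeping and signalling lists held few low p-values. Respiratory chain genes lay above in 31 of 54, with a median of 0.022, ribosomal protein genes in 11 of 21 at 0.012, and genes of the proton pump and lysosome in 20 of 36 at 0.050. Atp5c1, a subunit of ATP synthase, read 11.11, 11.08 and 11.20 in haloperidol mice, against 10.93, 10.73 and 10.91 in controls. Its groups did not overlap, and both its probe sets lay above, at 0.27 and 0.34. Ndufb7, another respiratory chain gene, read 8.51, 7.77 and 8.38, against 8.84, 8.63 and 8.58. It lay below at -0.46 ± 0.195, also without overlap, beside 8.11% of all probe sets. At an unadjusted p under 0.05 the respiratory chain list held 1 gene above, Atp5c1, and 1 below, Ndufb7. Without haloperidol 3 these 3 medians were -0.042, -0.071 and -0.004. MAP kinase genes lay above in 10 of 19 at 0.036 and Akt and Gsk3 genes in 11 of 20 at 0.007. Chaperone genes lay above in 23 of 39 at 0.015. Without haloperidol 3 the MAP kinase and chaperone medians were -0.006 and -0.024. The glucocorticoid-responsive genes lay above in 6 of 13 at -0.098. In these, Per1 and Hsd11b1, which regenerates active glucocorticoid, lay above with an unadjusted p under 0.05 and Mt2 below. Over all probe sets 2.21% lay above and 1.45% below at that p. Hsd11b1 lay at 0.38 ± 0.15, and haloperidol 1 overlapped control 1.

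Glia, vessel and blood genes lay, at the median, a little below the controls. Astrocyte genes lay above in 10 of 25, with a median of -0.046, oligodendrocyte genes in 5 of 13 at -0.046, microglial genes in 3 of 12 at -0.10, vessel genes in 4 of 14 at -0.098, choroid plexus genes in 2 of 6 at -0.042 and the blood genes in 0 of 4 at -0.30. Gfap, of astrocytes, read 7.31, 7.21 and 7.56 in haloperidol mice, against 7.30, 7.25 and 8.16 in controls, with control 3 the highest, and lay at -0.21 ± 0.24. Csf1r, a microglial receptor, read 7.82, 7.83 and 7.91 in haloperidol mice, against 8.00, 8.22 and 7.93 in controls, and lay at -0.19 ± 0.11. Some glial genes lay above the controls. Aqp4, of astrocytes, lay at 0.49 ± 0.27 with overlap, and its second probe set at 0.81. Ctss, of microglia, lay at 0.25 ± 0.15 and Cldn11, of oligodendrocytes, at 0.23 ± 0.18, both with overlap. Mobp, of myelin, lay at -0.23 ± 0.12 in its brightest set and at 0.115, 0.178 and 0.229 in its others. Hba-a1, a haemoglobin gene, read 8.58, 9.82 and 9.81, against 9.93, 10.13 and 10.17, with haloperidol 1 low. Hbb-b2, another, was likewise lowest in haloperidol 1, at 6.30, and the part of blood in other values was not tested.

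**Figure D4:**
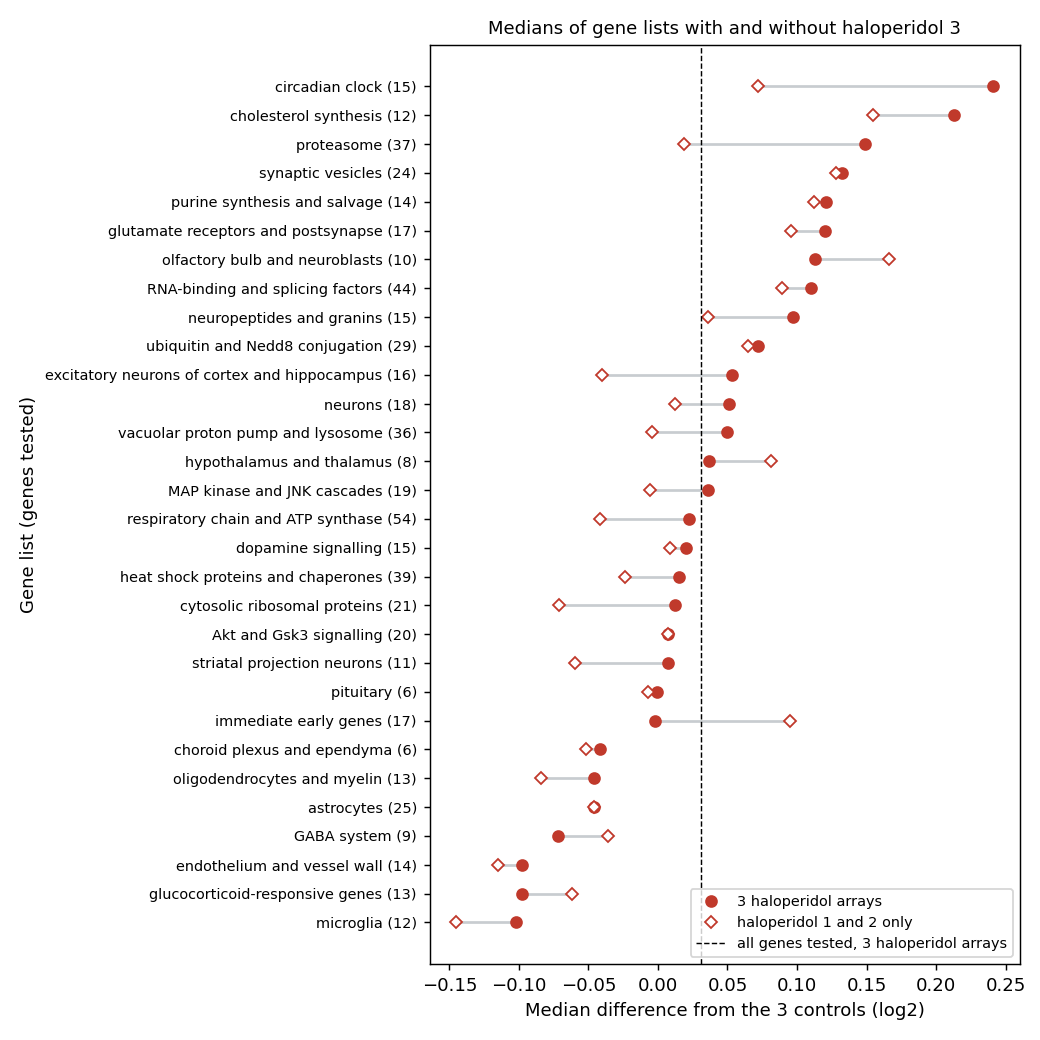
Median difference from the controls (log2, horizontal) for each gene list with at least 5 tested genes (vertical, genes tested in brackets); filled circles use all 3 haloperidol arrays, open diamonds haloperidol 1 and 2, and the dashed line is the median of all genes tested. The proteasome and clock medians lie far from their diamonds, at 0.15 against 0.019 and 0.24 against 0.072, while those of cholesterol synthesis lie closer, at 0.21 and 0.155.

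The pituitary list held the clearest single signal, and only in haloperidol 3. Growth hormone, Gh, read 1.07, 1.28 and 12.57 in haloperidol 1, 2 and 3, against 1.13, 1.11 and 1.14 in controls. Prolactin, Prl, read 3.45, 3.55 and 11.76, against 3.59, 3.57 and 3.84. Haloperidol 1 and 2, at 3.45 and 3.55, lay below every control, but clozapine 1 was lower still, at 3.38. These values lay under the filter. Over all probe sets the haloperidol arrays also read lower, with medians of 4.07, 4.06 and 4.02, against 4.15, 4.19 and 4.11 in controls. Pomc, the precursor of corticotropin, read 2.08, 2.10 and 10.31, against 2.30, 2.12 and 2.13. In each gene a single array stood far above the rest, and the haloperidol 3 value for Gh was 11.29 log2 units above the next array. Cga, the shared subunit of glycoprotein hormones, read 2.37, 2.38 and 7.63, against 2.44, 2.45 and 2.45, and Tshb, the thyrotropin subunit, 2.80, 2.80 and 6.14, against 2.86, 2.85 and 2.93. Dlk1, which is also abundant in the pituitary, read 3.43, 3.48 and 6.91, against 3.55, 3.56 and 3.57. The gonadotropin subunits Lhb and Fshb, at 0.79 and 2.63 in haloperidol 3, were no higher than in the clozapine array that held most of each, and stayed near the floor in every array. The hormone genes summed to a log2 level of 13.44 in haloperidol 3, against 5.29 to 5.39 in the controls, and the whole list of 22 genes to 14.03 against 12.31 to 12.80. Gh, Prl, Pomc, Cga, Tshb and Dlk1 lay under the filter, since their 9-array means were 2.41 to 4.50 and the filter value was 5.15.

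**Figure D5:**
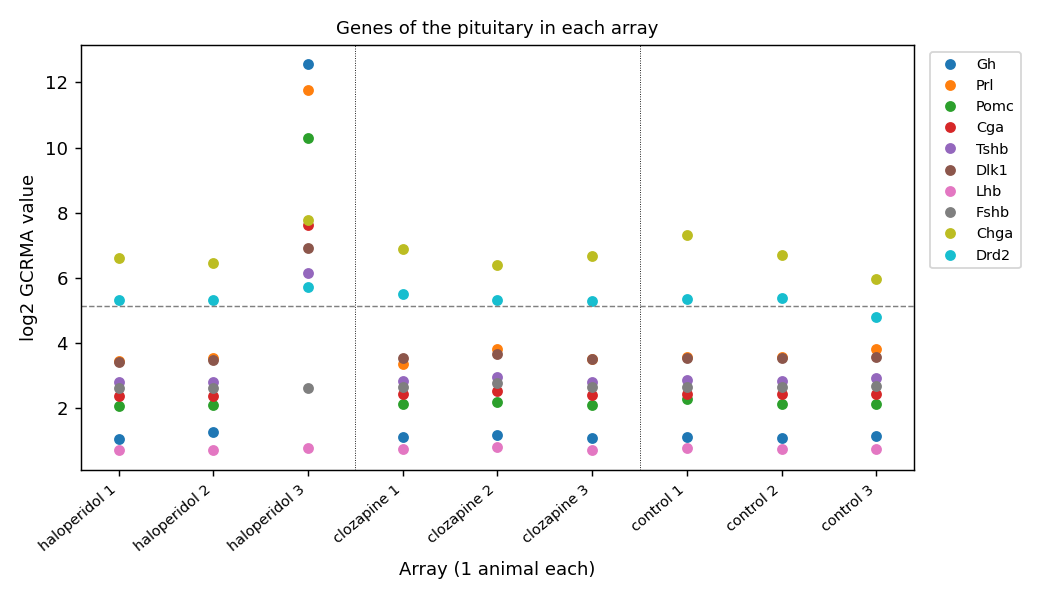
Level of 10 genes of the pituitary list (log2, vertical) in each array (horizontal, 1 animal each, groups divided by dotted lines); the dashed line is the lowest 9-array mean that was tested. In haloperidol 3 alone Gh, Prl, Pomc, Cga, Dlk1 and Tshb stand above the line. Chga does so in every array and Drd2 in every array but control 3.

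Few tested genes belonged to this list. Of the 27 listed genes 22 were on the array and 6 were tested, 3 above and 3 below the controls, with a median of -0.001. Chga, a granin of secretory granules, read 6.63, 6.45 and 7.79, against 7.34, 6.70 and 5.98, highest in haloperidol 3 but with control 1 above haloperidol 1 and 2. Its difference was 0.28 with and -0.14 without haloperidol 3, and Scg2 and Chgb lay at 0.008 and -0.018. No tested probe set had haloperidol 3 at least 1 log2 unit above all other arrays, against 10 of all probe sets on the array, 7 of them pituitary. In contrast control 3 stood apart by that much, higher for 9 tested probe sets and lower for 107. The filter left out sets near the floor in every array but haloperidol 3. Their absence from the tested sets therefore cannot show how far pituitary RNA reached those. A few tested genes were high or low in single arrays of both groups. Cplx2, a regulator of vesicle release, read 5.17, 9.61 and 5.0 in haloperidol mice, against 5.66, 4.10 and 8.68, high in haloperidol 2 and control 3. Gnb1, a G protein subunit, read 5.45, 11.31 and 6.06, against 5.61, 5.97 and 10.73. Actb and Otub1 showed the same pattern, and Lamb1, a laminin chain, read 5.73, 5.62 and 3.80, against 4.55, 6.10 and 6.37. These 5, named because leaving out haloperidol 3 moved them most, had standard errors of 0.70 to 1.92.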

How the data were processed

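RNA of 9 mice, 3 per treatment, was hybridised to 1 Affymetrix U74Av2 array each. The authors deposited log2 values per probe set, which come from GCRMA per the submitters' processing notes. Its version and the probe set definition are not given in the sources used here. GCRMA corrects background by probe sequence, normalises arrays to each other and draws low values towards a floor, so differences among dim sets are compressed. The number of arrays limits the precision.

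Of 12488 probe sets, 66 array controls were left out. Of the rest, 10833 carried 1 symbol in the platform annotation, 396 several and 1193 none, and 10817 symbols were matched to RefSeq. Sets with a 9-array mean above the 60th percentile were tested with limma 3.58.1 in R 4.3.3. The linear model estimated each treatment's mean from all 9 arrays, leaving 6 residual degrees of freedom. The contrast was haloperidol minus control, and two-sided p-values were adjusted by Benjamini-Hochberg over 4969 sets. The fit was tested on simulated data. In lists, a gene was represented by its set with the highest mean.

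The members and lists were chosen with earlier results of these data known. Genes named were drawn from the 15 above and 15 below with the lowest p, and the 2 of lowest p in each list. Further sources were the pituitary list, a set of receptor, neuropeptide, immediate early and marker genes, and the 5 moved most without haloperidol 3. Not every gene picked by these rules is described. All genes from outside them were named after their values were seen. Arrays with the same replicate number did not deviate together (r of -0.429, -0.236 and -0.661), so the numbers were not taken to pair animals. Alternatives covered the filter, scaling, fit, probe set kinds, a 3' to 5' covariate and each array left out.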

Additional observations from a re-analysis of the deposited data

Results flagged for a closer look

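Outside the comparison lay 7519 probe sets. In these, 11 values of single haloperidol arrays exceeded the highest control by more than 3 log2 units. In haloperidol 3 they were Gh at 12.57, Prl at 11.76, Pomc at 10.31, Cga at 7.89 and 7.63 in its 2 probe sets, Dlk1 at 6.91 and Tshb at 6.14. The highest controls for these stood at 1.14, 3.84, 2.30, 1.86, 2.45, 3.57 and 2.93. In haloperidol 2 they included the 3 control probe sets of 18S ribosomal RNA at 10.88, 9.35 and 8.97, where the highest controls stood at 2.30, 2.83 and 2.33. The other was a control set of Gapdh whose name ends in _st, at 9.54, where the highest control stood at 6.35. The Gapdh set also read 8.52 in a clozapine array. Groups of 3 arrays were too small for a test of single outlying samples.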

How the results depend on the processing

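Limma called 0 probe sets at an adjusted p of 0.05 in every alternative run, and at 0.10, with a lowest adjusted p between 0.107, with no filter, and 1.0, without haloperidol 3. Counts at an unadjusted p under 0.05 moved. Above the controls, 110 became 55 in a fit to the 6 arrays, 180 with no filter, 69 with the filter at the 75th percentile, 64 with arrays centred and 241 with the 3' to 5' gap as a covariate. Below, 72 became 43, 1764, 30, 105 and 216 in the same settings, 527 with the filter at the 40th percentile, 111 with array weights, whose estimation stopped short of its convergence tolerance, and 24 without the sets with special suffixes. With each array left out in turn the counts ran from 38 to 193 above and from 35 to 169 below. Above, they were 49 without haloperidol 3, 193 without control 1, 38 without control 2 and 189 without control 3; below, they were 114 without haloperidol 1, 38 without haloperidol 3, 125 without control 1, 35 without control 2 and 169 without control 3. Alternatives chosen after seeing the data gave 163 above and 165 below without haloperidol 3 and control 3, and 62 and 47 without haloperidol 3 and control 1. The replicate number as a block, which the arrays did not bear out as a pairing, gave 89 above and 60 below and 0 calls. The causes of these moves were not tested.

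All 30 genes with the lowest p kept their direction with each array left out. This was fixed beforehand, since their groups did not overlap, so it adds nothing. Of 256 list medians recomputed 31 moved by more than the spread between replicates. Differences of other named genes turned sign, none of them past the adjusted threshold in any setting. Tac1 was -0.026 with arrays centred, -0.003 after quantile normalization and -0.011 without haloperidol 3 and control 3, and Egr1 was -0.011 and -0.003 in the first 2 of these. Without haloperidol 3 and control 3, Drd2 was -0.037, Homer1 -0.154, Otub1 1.615 and Lamb1 0.351. Nr4a1 was -0.054 without haloperidol 3 and control 1. With the 3' to 5' covariate Homer1 was -0.134, Otub1 0.509 and Lamb1 0.338, and with array weights Otub1 was 0.176. With each array left out, the difference ran from -0.048 to 0.106 for Tac1, from -0.107 to 0.331 for Fos, from -0.043 to 0.095 for Egr1, from -0.13 to 0.419 for Nr4a1, from -0.366 to 0.088 for Gfap and from -0.012 to 0.441 for Homer1. For the genes high or low in single arrays it ran from -1.06 to 1.717 for Cplx2, from -1.685 to 1.817 for Gnb1, from -1.22 to 1.092 for Actb, from -1.403 to 0.983 for Otub1 and from -1.184 to 0.001 for Lamb1.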
